A study of Mus musculus with 6 samples.

Results

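Enzymes that use glutathione or clear aldehydes, ketones and quinones were followed in cultured primary fibroblasts of mouse embryos (MEFs) during exposure to hydrogen peroxide (H2O2), an oxidant. The rule that picks the genes uses their names and no measured value, although the families were chosen with earlier results of these data known: the cytosolic glutathione S-transferases (Gsta, Gstk, Gstm, Gsto, Gstp and Gstt), the microsomal transferases (Mgst), the glutathione peroxidases (Gpx), the aldo-keto reductases (Akr1), the aldehyde dehydrogenases (Aldh), the quinone reductases Nqo1 and Nqo2, and the carbonyl reductases (Cbr). The array held 68 such names among 27962, each represented by its brightest probe. A gene was tested if at least 1 group had it well above background on both of its arrays, which held for 61 of the 68 and for 17334 genes in all. RNA was measured on 6 one-colour Agilent arrays in 3 groups of 2: untreated cells (0 h), cells after 2 h in 1 mM H2O2, and cells after 4 h in 1 mM H2O2. All cells grew in DMEM with serum, and neither the mouse strain nor the genotype is given in the sources used here. The labels call the 2 arrays of a group independent experiments without saying what was separate, so standard errors and p-values measure the spread between these samples. There were no untreated cells at 2 h or 4 h, so H2O2 and the time or handling that went with it cannot be told apart.

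Glutathione S-transferases join the tripeptide glutathione to reactive, electron-poor compounds, which makes them soluble and marks them for export. Glutathione peroxidases use the same tripeptide to reduce hydrogen peroxide and lipid peroxides. Aldehyde dehydrogenases, aldo-keto reductases, carbonyl reductases and quinone reductases deal with reactive carbonyls and quinones, many of which form when lipids are oxidised, and several of these genes are known targets of the transcription factor Nrf2.

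Signals below are the processed intensity of the arrays after each array was scaled to a common 75th percentile of 744, and changes are differences of log2 signals ± their standard error (SE), for 2 arrays in each group. The 75th percentile before scaling lay between 674 and 883, between 57.3% and 68% of spots were well above background, no spot was saturated, and replicate arrays correlated with r of 0.992 to 0.994 across genes. Replicate 1 of every group lay on one slide and replicate 2 on the other, so the first of each pair of signals comes from slide 1. Each group took the same position on both slides, so position and group cannot be told apart. All 11 fibroblast markers examined, among them Col1a1, Vim and Pdgfra, were well above background on all 6 arrays. Of 6 hepatocyte markers, 3 (Apoa1, Ttr and Fgb) were not above background on any array, and the summed signal of all 6 was 191 to 196 in untreated cells, 177 to 215 at 2 h and 203 to 213 at 4 h. The summed signal of 8 endothelial markers was 352 and 402 in untreated cells, 815 and 735 at 2 h and 713 and 730 at 4 h, with Cdh5 and Tie1 not above background on any array. Of the other 6, which were tested, Pecam1, Robo4, Vwf and Cldn5 rose at 2 h, Pecam1, Robo4 and Vwf rose at 4 h, and Kdr and Tek did not pass. Robo4 had signals of 6.15 and 5.91 in untreated cells, 79.3 and 83.2 at 2 h and 50.5 and 48.6 at 4 h, at least 5.43-fold higher at 2 h and 3.31-fold at 4 h. The summed signal of 5 epithelial markers was 1252 and 1177 in untreated cells, 1847 and 1903 at 2 h and 1976 and 1770 at 4 h, and that of 8 leukocyte markers was 1894 and 1812, 2264 and 2099, and 2339 and 2257 at the same times. The part of these marker changes in the results was not tested. In such bulk RNA, fewer cells of a type and less RNA per cell cannot be told apart.

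After 2 h in H2O2, 22 of the 61 tested detoxifying enzyme genes rose, 1 (Gpx2) fell and 38 did not pass the test (limma, Benjamini-Hochberg adjusted p under 0.05 over all genes). Among all 17334 tested genes, 23.7% rose and 15.3% fell at 2 h, 39% in all, against 36.1% and 1.64% of the detoxifying genes. After 4 h, 21 rose, 3 fell (Aldh1b1, Cbr4 and Gstt3) and 37 did not pass, or 34.4% and 4.92%, where 24.6% of all genes rose and 18.4% fell (43% in all). The shares that fell were below those of all genes at both times, also under all 18 alternative analyses for which shares were computed. The share that rose at 4 h was above that of all genes under the same 18, by little in some, such as median centring (14.8% against 13.2%). These analyses all use the same 6 arrays, so they are not independent of each other. The share that rose at 2 h was above it under 13 of the 18, and below it with quantile normalization (14.8% against 15.2%), with median centring (9.84% against 10.7%), without untreated replicate 2 (8.2% against 11.8%), and without 2 h replicate 1 (11.5% against 12.2%) or 2 (9.84% against 11.5%). Both times share the untreated arrays: 15 genes rose at both, 7 passed as a rise at 2 h alone, and 6 passed as a rise at 4 h alone, Gpx2 among them. The median change of the 61 genes was 0.24 at 2 h and 0.21 at 4 h, beside 0.12 and 0.07 for all tested genes. Within slides 1 and 2 it was 0.20 and 0.23 at 2 h, and 0.23 and 0.18 at 4 h. Akr1b7 and Akr1c6, counted among the rises, entered the test only through the group in which they were high. Their passing, here and in the fits below that left out 1 array, is therefore no support for a rise. The 59 genes well above background on all 6 arrays were also tested among the genes that met the same condition. Of these 59, 23 rose and 2 fell at 2 h, and 22 rose and 3 fell at 4 h. At 2 h that was 39% and 3.39%, where 25% of all genes in that fit rose and 17% fell. At 4 h it was 37.3% and 5.08%, where 26.5% rose and 20.8% fell. With 2 arrays a group, single arrays mattered: 8 or 5 rose at 2 h without untreated replicate 1 or 2, and 7 or 6 without 2 h replicate 1 or 2, while without untreated replicate 1 a second gene fell. At 4 h, 10 rose without untreated replicate 2, 13 without either 2 h replicate, and 12 without 4 h replicate 1. The calls kept in all 6 fits that left out 1 array were, at 2 h, 6 of 23 (Akr1b7, Aldh1a3, Gpx2, Gsta1, Gsta3 and Gsto2) and, at 4 h, 11 of 24 (Akr1b7, Akr1c6, Aldh1a3, Aldh1b1, Cbr3, Cbr4, Gsta1, Gsta3, Gsta4, Gsto2 and Gstt3).

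Most of these rises were small, and their calls, and for part of them the sign, depended on how the arrays were scaled. Of the 22 rises at 2 h, 15 were under 0.5 on the log2 scale, and of the 21 at 4 h, 11 were. Relative to the 75th percentile, centring on the median moved the change of every gene by the same amount (-0.198 at 2 h and -0.156 at 4 h), as did leaving out the scaling (-0.337 and -0.260) and scaling on the spiked-in control RNAs (-0.371 and -0.257). A rise smaller than such a shift turns negative by construction, while its place relative to all genes stays the same. Of the 15 small rises at 2 h, 11 turned negative without scaling and 12 with the spike-in scaling. Of the 11 at 4 h, 2 turned negative under either. With median centring 0 turned negative, and under these 3 scalings 0 of the small rises passed at either time. Quantile normalization moved the genes unequally, by between -0.380 and 0.030 at 2 h, and with it 3 of the 15 small rises at 2 h and 7 of the 11 at 4 h still passed. Of the 7 rises of 0.5 or more at 2 h, 6 passed with quantile normalization, as did 9 of the 10 at 4 h and all 3 falls at 4 h. The median of the 61 genes at 2 h was 0.24 with the 75th percentile and 0.11 with quantile normalization, beside 0.12 and 0.01 for all tested genes. At 4 h it was 0.21 and 0.08, beside 0.07 and -0.02.

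**Figure D1:**
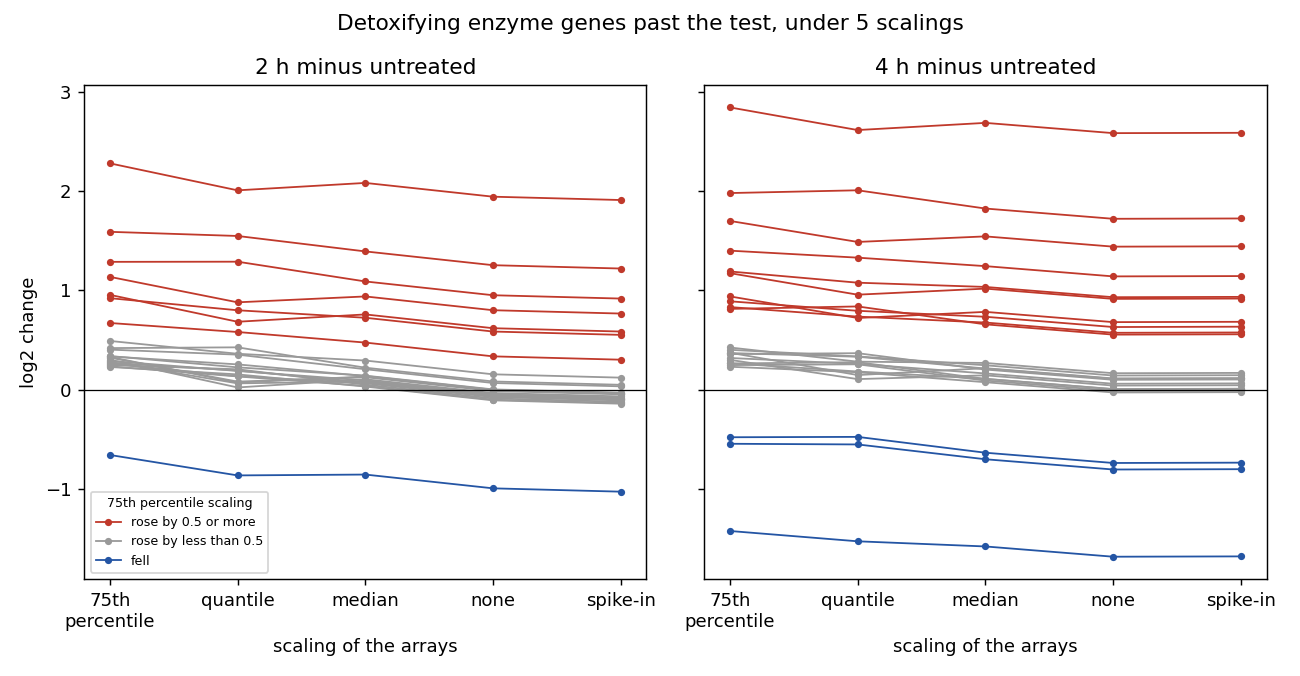
Log2 change of the detoxifying enzyme genes that rose or fell at 2 h (left) and 4 h (right) against untreated cells, under 5 scalings of the arrays. Red lines are genes that rose by 0.5 or more with the 75th percentile scaling, grey lines those that rose by less, and blue lines those that fell. Median centring, no scaling and the spike-in scaling move all lines of a panel by the same amount, while quantile normalization moves them unequally. Of the 15 grey lines at 2 h, 11 lie below 0 without scaling and 12 with the spike-in scaling. Of the 11 at 4 h, 2 do under either, and with median centring all grey lines stay above 0.

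Rises among all genes were most frequent at both ends of the brightness range at 2 h. When all tested genes were split by mean signal into 5 equal groups, 28.2% of the dimmest and 34.3% of the brightest rose at 2 h (medians 0.24 and 0.21), against 15.1% in the middle group. At 4 h the shares were 25.1% in the dimmest, 20.6% in the middle and 31.8% in the brightest group. The 16 detoxifying genes in the brightest group had medians of 0.25 at 2 h and 0.28 at 4 h, and 8 and 7 of them rose. The 8 in the dimmest group had medians of 0.26 and 0.73, and 3 and 4 of them rose. The part of brightness in these rises was not tested.

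**Figure D2:**
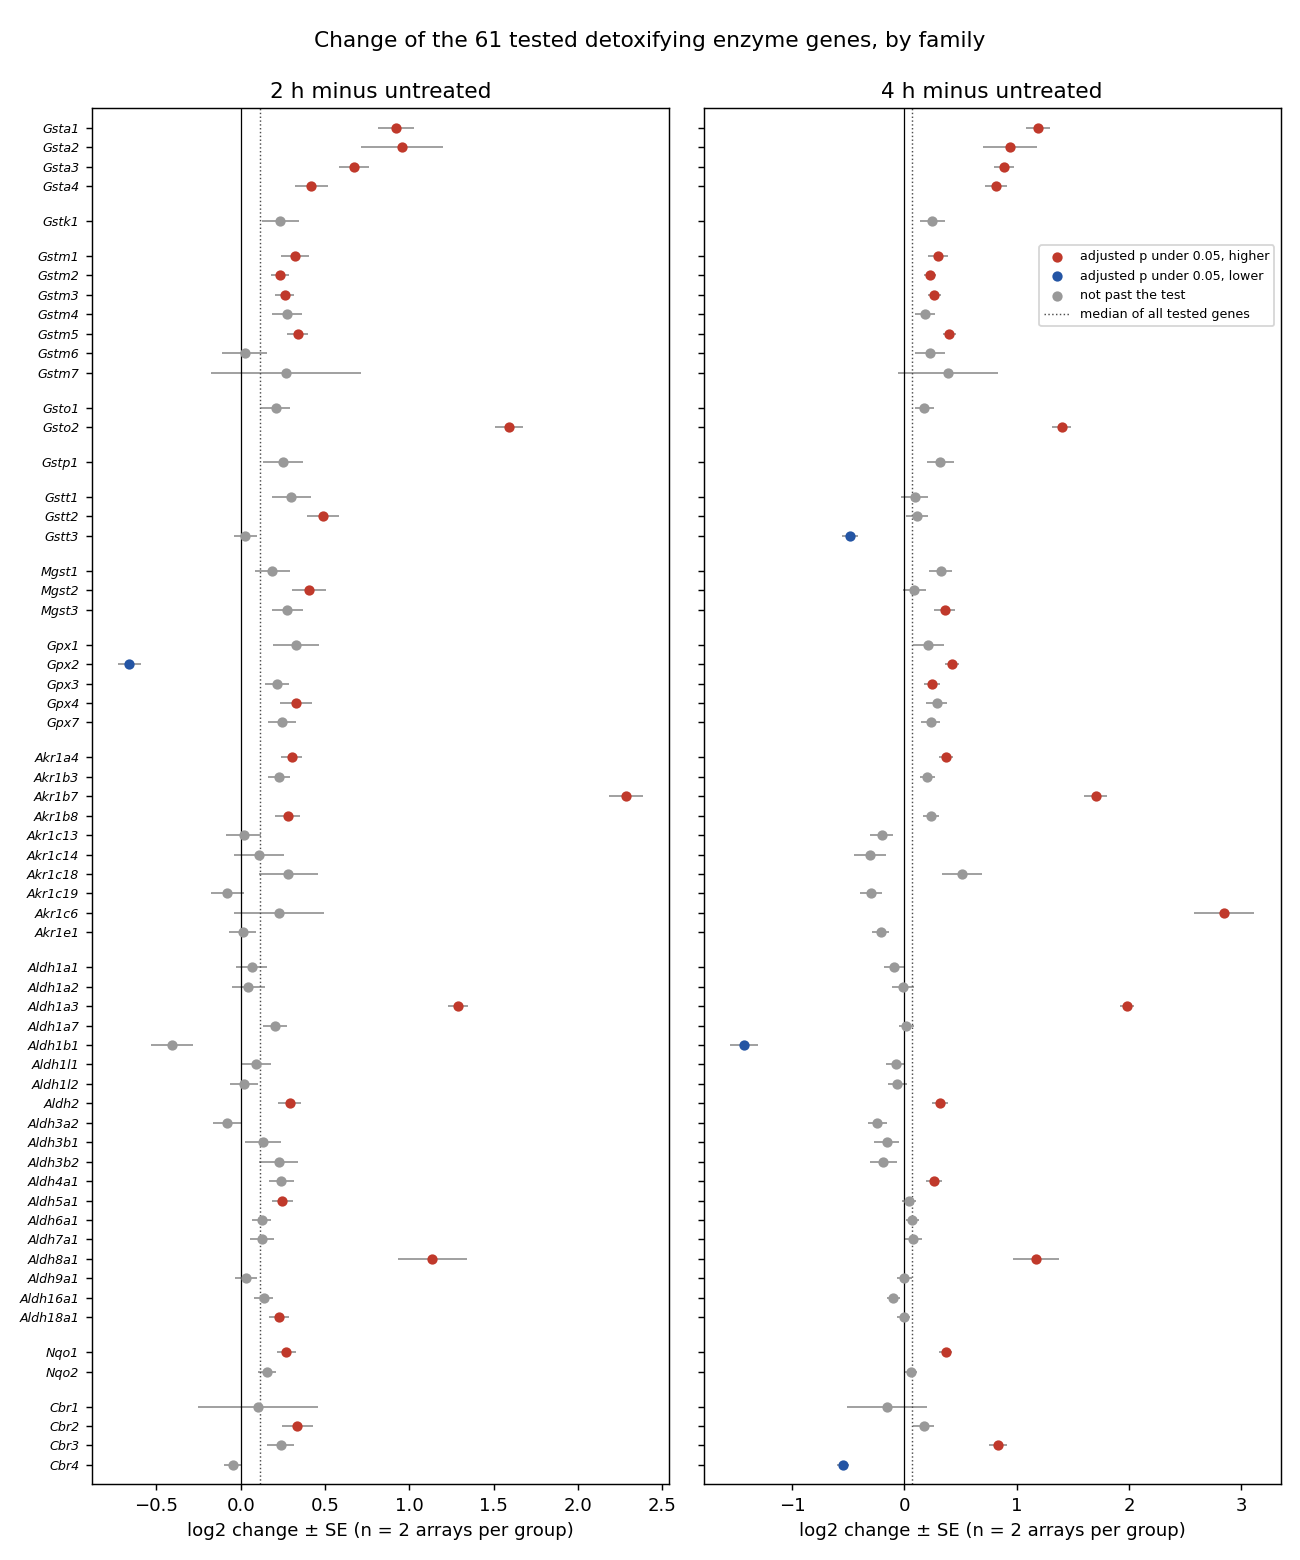
Log2 change ± SE (n = 2 arrays per group) of the 61 tested detoxifying enzyme genes by family, 2 h minus untreated (left) and 4 h minus untreated (right). Red points rose and blue points fell at an adjusted p under 0.05, and the dotted line is the median of all tested genes (0.12 and 0.07); all 4 Gsta genes rose at both times, and the rises under 0.5 lay between 0.23 and 0.49 at 2 h; the points of Akr1b7 and Akr1c6 are fitted values from signals not above background in untreated cells.

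The alpha-class transferases, which conjugate products of lipid peroxidation and also reduce lipid hydroperoxides, were the family in which every tested gene rose at both times: 4 of 4, with medians of 0.80 at 2 h and 0.92 at 4 h. Among all tested genes, 23.7% rose at 2 h and 24.6% at 4 h. The calls of Gsta2, and that of Gsta4 at 2 h, were less stable than the others. Gsta1 had signals of 93.2 and 78.7 in untreated cells, 154 and 171 at 2 h and 197 and 194 at 4 h. The 3 groups did not overlap. Gsta1 was 1.90-fold higher at 2 h (log2 change 0.92 ± 0.11, adjusted p = 0.0043) and 2.28-fold higher at 4 h (1.19 ± 0.11, adjusted p = 0.00216), and both changes passed in all 19 alternative analyses that gave a test. Gsta3 had signals of 136 and 129, 212 and 209, and 263 and 228 at 0 h, 2 h and 4 h, and was 1.59-fold higher at 2 h (0.67 ± 0.09, adjusted p = 0.00609) and 1.85-fold higher at 4 h (0.89 ± 0.09, adjusted p = 0.00271). A second Gsta3 probe gave changes of 0.95 and 0.94. With the spike-in scaling the rise of Gsta3 at 2 h was 0.30 and did not pass (adjusted p = 0.106). Gsta4, which acts on the lipid aldehyde hydroxynonenal, had signals of 613 and 662, 846 and 856, and 1036 and 1211 at 0 h, 2 h and 4 h. Its groups were apart at every step, with changes of 0.42 ± 0.10 at 2 h (adjusted p = 0.0291), 0.81 ± 0.10 at 4 h (adjusted p = 0.00434) and 0.40 ± 0.10 between 4 h and 2 h (adjusted p = 0.0412). The 2 h change of Gsta4 was 0.05 with the spike-in scaling, and the 4 h change was at least 0.55 under all 5 scalings. Its call at 2 h ended in 9 of the 19 alternative analyses, and its call at 4 h in 0.

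Gsta2 was dim and its replicates lay further apart than those of Gsta1: its signals were 31.8 and 20.2 in untreated cells, 44.8 and 53.9 at 2 h and 46.1 and 51.2 at 4 h. Its changes of 0.96 ± 0.24 at 2 h (adjusted p = 0.0368) and 0.94 ± 0.24 at 4 h (adjusted p = 0.0353) did not pass in the fit with slide as block (adjusted p = 0.0591 and 0.0608). At each time 11 of the 19 alternative analyses ended the call. The slides differed in size, with 0.50 and 1.42 at 2 h and 0.54 and 1.34 at 4 h on slides 1 and 2. Gsta1 and Gsta2 are close paralogs, and how far their probes also bind the other's transcript is not known here, so their separate levels are uncertain.

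The upstream sequences of Gsta1, Gsta2 and Gsta3 are shown because these genes rose together at both times. They come from RefSeq on build GRCm38.p6 and cover the 250 bases before each annotated start. Gsta1 lies on the plus strand (chr9:78230419-78230668) and Gsta2 on the minus strand (chr9:78347146-78347395). Aligned, both windows were identical in 190 of 266 columns (71.4%), and the capitals mark their longest shared run, 29 bases that begin at position -118 from the start of Gsta1 and at -121 from that of Gsta2. Gsta3 lies on chromosome 1, plus strand (chr1:21240335-21240584), and its capitals mark a match to TGACNNNGC, the core of the antioxidant response element to which Nrf2 binds, which begins at position -121 from the start.
Gsta1: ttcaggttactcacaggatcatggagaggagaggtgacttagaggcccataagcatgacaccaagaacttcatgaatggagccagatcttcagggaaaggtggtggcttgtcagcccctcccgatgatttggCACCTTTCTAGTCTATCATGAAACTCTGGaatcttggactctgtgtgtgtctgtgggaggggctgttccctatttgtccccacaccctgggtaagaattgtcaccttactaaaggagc
Gsta2: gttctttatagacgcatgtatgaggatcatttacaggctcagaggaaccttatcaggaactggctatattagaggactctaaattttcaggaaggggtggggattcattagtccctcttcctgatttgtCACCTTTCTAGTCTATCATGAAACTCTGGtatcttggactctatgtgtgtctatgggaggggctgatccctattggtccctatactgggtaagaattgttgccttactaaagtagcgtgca
Gsta3: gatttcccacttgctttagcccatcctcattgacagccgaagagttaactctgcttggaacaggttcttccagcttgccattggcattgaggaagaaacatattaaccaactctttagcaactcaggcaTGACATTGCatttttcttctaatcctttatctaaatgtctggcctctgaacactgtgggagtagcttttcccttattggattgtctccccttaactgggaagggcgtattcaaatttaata

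The motif TGACNNNGC, read on both strands in windows of 300 bases (250 before to 50 after the start), was present for 7 of the 58 detoxifying genes that had a window (12.1%). It was present for 14.0% of all 27025 genes with a window. Among the 24 genes with a window that rose at 2 h or 4 h, 2 held it (8.33%), Gsta3 and Gstm5. Elements outside these windows were not looked at, and a match in letters is not a measured site.

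Of the omega-class genes, which reduce dehydroascorbate, Gsto2 rose and its neighbour on chromosome 19, Gsto1, did not pass. Gsto2 had signals of 152 and 157 in untreated cells, 499 and 435 at 2 h and 410 and 407 at 4 h. All 4 treated arrays lay far above both untreated arrays, and the 2 h arrays lay above the 4 h arrays. Gsto2 was 3.02-fold higher at 2 h (1.59 ± 0.08, adjusted p = 0.000521) and 2.64-fold higher at 4 h (1.40 ± 0.08, adjusted p = 0.000819), and the step between 4 h and 2 h did not pass (-0.19 ± 0.08, adjusted p = 0.162). A second Gsto2 probe was not above background on any array, and the mean of both probes gave 0.94 at 4 h, which did not pass (adjusted p = 0.0647). Gsto1, an abundant gene with signals of 61075 and 58395 at 2 h against 54237 and 49264 in untreated cells, changed by 0.21 ± 0.09 at 2 h (adjusted p = 0.117) and 0.18 ± 0.09 at 4 h (adjusted p = 0.16). In the fit with slide as block Gsto1 passed at both times (adjusted p = 0.0295 and 0.0405).

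The mu-class genes, a cluster of 7 on chromosome 3 in mouse, changed little. Of the 7, 4 rose at both times and 3 (Gstm4, Gstm6 and Gstm7) did not pass at either. That was 57.1% at each time, where 23.7% of all tested genes rose at 2 h and 24.6% at 4 h. The medians were 0.27 at 2 h and 0.26 at 4 h, beside 0.12 and 0.07 for all genes. Gstm5 had signals of 4537 and 4449, 5667 and 5691, and 6136 and 5735 at 0 h, 2 h and 4 h, all treated arrays above both untreated ones. Its changes were 0.34 ± 0.06 at 2 h (adjusted p = 0.0143), which turned to -0.03 with the spike-in scaling, and 0.40 ± 0.06 at 4 h (adjusted p = 0.00818). Gstm1 changed by 0.32 ± 0.09 and 0.30 ± 0.09 (adjusted p = 0.0414 and 0.0464), Gstm2 by 0.23 ± 0.05 at both times and Gstm3 by 0.26 ± 0.06 at both times. Under no scaling and the spike-in scaling the 2 h changes of Gstm1, Gstm2 and Gstm3 turned negative, as did the 4 h change of Gstm2. A second Gstm1 probe gave 0.27 at both times. The genes of this cluster are alike in sequence, so signal from one may reach another's probe, and their separate levels are uncertain.

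The other cytosolic and microsomal transferases gave few changes. Gstt3 had signals of 704 and 698 in untreated cells, 700 and 730 at 2 h and 526 and 480 at 4 h, and fell at 4 h, by 0.48 ± 0.07 on the log2 scale (adjusted p = 0.00733). The step from 2 h was -0.51 ± 0.07 (adjusted p = 0.00908). Its neighbours on chromosome 10 behaved differently: Gstt2 rose at 2 h (0.49 ± 0.10, adjusted p = 0.0178) with signals of 88 and 74.9, 115 and 113, and 90.2 and 85.5 at 0 h, 2 h and 4 h, and the 4 h arrays overlapped the untreated ones. Gstt1 changed by 0.30 ± 0.12 at 2 h (adjusted p = 0.104, and 0.0492 in the fit with slide as block) and 0.09 ± 0.12 at 4 h. The pi-class gene Gstp1, abundant in fibroblasts, changed by 0.25 ± 0.12 and 0.32 ± 0.12 at 2 h and 4 h (adjusted p = 0.162 and 0.0893), and both passed in the fit with slide as block (adjusted p = 0.0258 and 0.0141). Gstp2 had no probe under that name, and Gstk1, a mitochondrial and peroxisomal transferase, changed by 0.24 ± 0.11 and 0.25 ± 0.11 without passing.

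The microsomal transferases are membrane proteins, some of which also make leukotrienes or reduce lipid peroxides. Mgst2 had signals of 187 and 193, 233 and 270, and 213 and 192 at 0 h, 2 h and 4 h, and rose at 2 h (0.40 ± 0.10, adjusted p = 0.0355) but not at 4 h (0.09 ± 0.10). Mgst3 had signals of 1418 and 1236, 1593 and 1616, and 1772 and 1625, and rose at 4 h (0.36 ± 0.09, adjusted p = 0.0353), while its 2 h change of 0.28 ± 0.09 did not pass (adjusted p = 0.0734, and 0.0456 in the fit with slide as block). Whether either gene differed between 2 h and 4 h was tested and did not pass (Mgst2 -0.31 ± 0.10, adjusted p = 0.0816; Mgst3 0.08 ± 0.09). Mgst1 changed by 0.19 ± 0.11 and 0.32 ± 0.11 without passing (0.0168 at 4 h in the fit with slide as block).

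**Figure D3:**
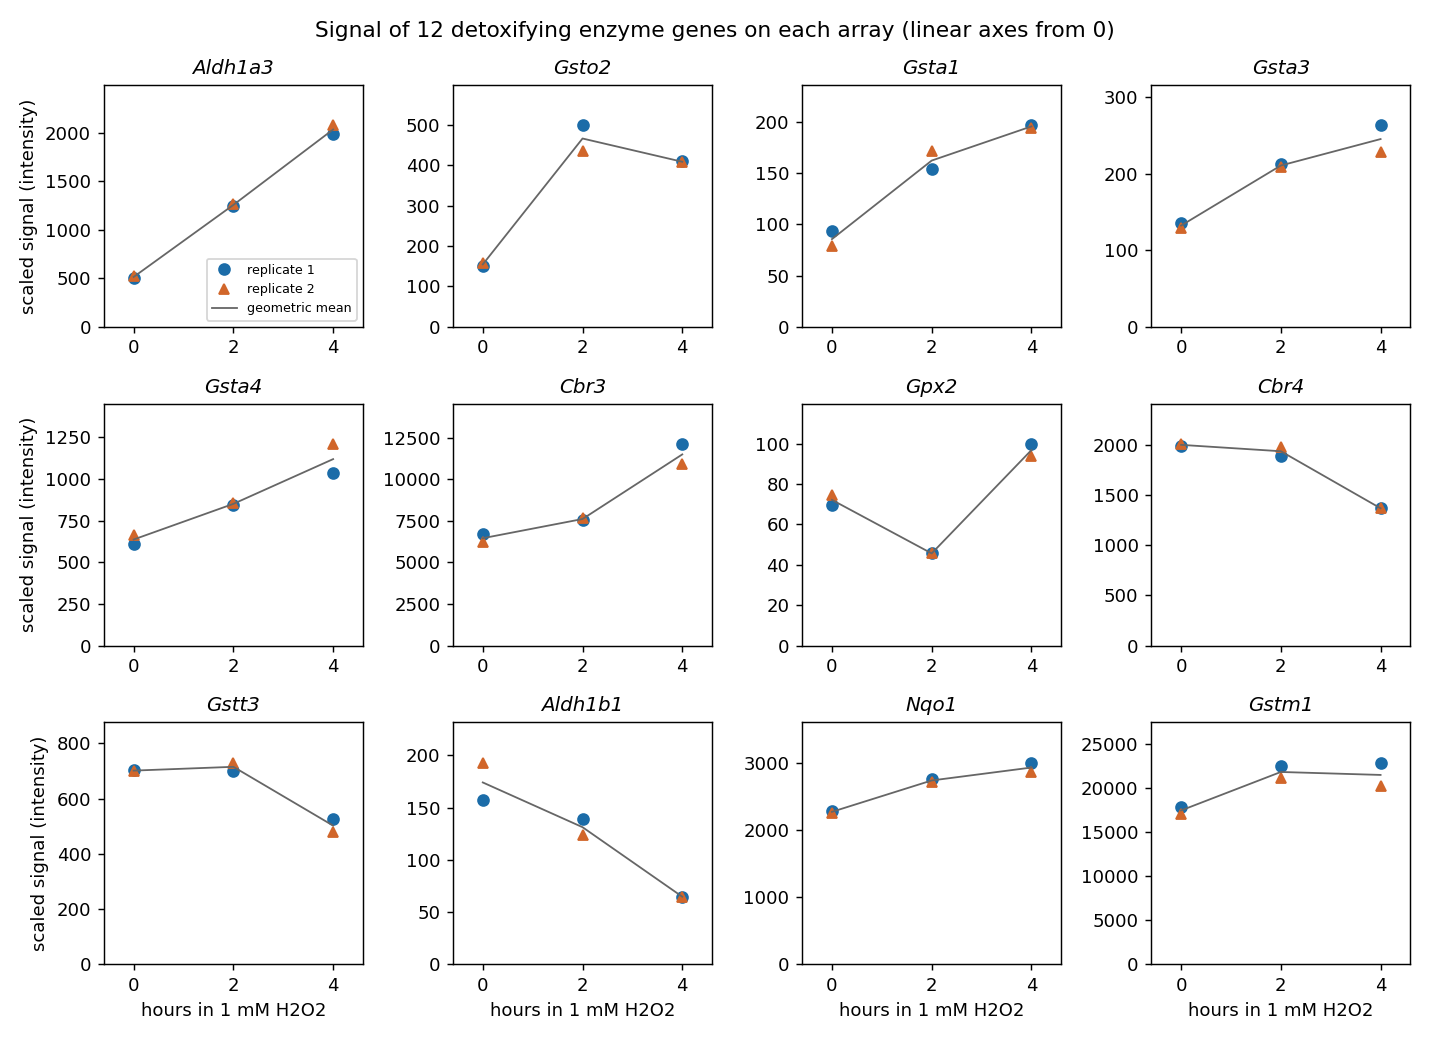
Scaled signal of 12 detoxifying enzyme genes on each of the 6 arrays (linear axes from 0) against hours in 1 mM H2O2, with 0 h untreated. Circles are replicate 1, triangles replicate 2 and lines join the geometric means; Aldh1a3 climbed at both steps, Gsto2 at the first, Cbr3 at the second, Gpx2 dipped at 2 h, and Cbr4, Gstt3 and Aldh1b1 were lowest at 4 h.

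Among the glutathione peroxidases, selenium enzymes for the most part, Gpx2 was the gene that moved furthest and in both directions. Gpx2, the gastrointestinal form, had signals of 69.7 and 74.6 in untreated cells, 45.6 and 45.6 at 2 h and 99.8 and 93.8 at 4 h. The 3 groups did not overlap: Gpx2 fell by 0.66 ± 0.07 at 2 h on the log2 scale (adjusted p = 0.00275), and at 4 h was 2.12-fold above 2 h (1.09 ± 0.07, adjusted p = 0.00217) and 1.34-fold above untreated cells (0.42 ± 0.07, adjusted p = 0.00898). The rise at 4 h above untreated cells was smaller under the other scalings (0.28 to 0.16) and did not pass there, whereas the fall at 2 h passed under all 5 scalings. After the normexp background correction with the 75th percentile the fall at 2 h was -0.16 and did not pass (adjusted p = 0.667).

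The abundant peroxidases changed little. Gpx1, the main cytosolic form, had signals of 66467 and 62694 at 2 h against 55294 and 47871 in untreated cells, and changed by 0.33 ± 0.13 (adjusted p = 0.119, and 0.0318 in the fit with slide as block) and by 0.21 ± 0.13 at 4 h. Gpx4, which reduces peroxides within membranes, rose at 2 h (0.33 ± 0.09) at an adjusted p of 0.0499, just inside the threshold, turned to -0.01 without scaling and -0.04 with the spike-in scaling, and changed by 0.29 ± 0.09 at 4 h (adjusted p = 0.0651, and 0.0211 with the block). Gpx3, the secreted form, rose at 4 h (0.25 ± 0.07, adjusted p = 0.0473), which did not pass with the block (adjusted p = 0.0531) and turned to -0.01 without scaling and with the spike-in scaling. Gpx7, a form of the endoplasmic reticulum, changed by 0.25 ± 0.08 and 0.23 ± 0.08 (adjusted p = 0.0745 and 0.08) and passed with the block (adjusted p = 0.0239 and 0.0251). Gpx5 and Gpx6 were not above background on any array.

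Of the 19 tested aldehyde dehydrogenases, 5 rose and 0 fell at 2 h, and 4 rose and 1 fell at 4 h, with medians of 0.13 and 0.00. The shares that rose, 26.3% and 21.1%, lay near the 23.7% and 24.6% of all tested genes. At an unadjusted p under 0.05, 1 (Aldh1b1) was lower at 2 h. Aldh1a3, which makes retinoic acid from retinaldehyde, rose furthest: its signals were 499 and 528 in untreated cells, 1246 and 1264 at 2 h and 1989 and 2075 at 4 h. Each step lay far outside the spread of replicates. Aldh1a3 was 2.44-fold higher at 2 h (1.29 ± 0.06, adjusted p = 0.000421) and 3.96-fold higher at 4 h (1.98 ± 0.06, adjusted p = 0.00024), and 4 h was 1.62-fold above 2 h (0.69 ± 0.06, adjusted p = 0.00352). A second Aldh1a3 probe also gave higher signals but a different course, with changes of 0.64 at 2 h and 0.34 at 4 h. With the mean of both probes the rise between 2 h and 4 h was 0.20 and did not pass (adjusted p = 0.335), so that step rests on the brighter probe.

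The other retinaldehyde dehydrogenases did not pass at either time. Aldh1a1 changed by 0.06 ± 0.09 and -0.09 ± 0.09, and Aldh1a2 by 0.04 ± 0.10 and -0.01 ± 0.10, at 2 h and 4 h. Without scaling the 2 h changes of Aldh1a1 and Aldh1a2 were -0.27 and -0.29 and passed as falls (adjusted p = 0.0268 and 0.0232). Aldh8a1, a dim gene, had signals of 27.6 and 23.1 in untreated cells, 46.7 and 66.1 at 2 h and 61.6 and 52.8 at 4 h. Its treated arrays lay above both untreated arrays, with changes of 1.14 ± 0.21 (adjusted p = 0.0147) and 1.18 ± 0.21 (adjusted p = 0.0123). Leaving out untreated replicate 2 ended both calls, as leaving out 4 h replicate 1 ended that at 4 h. Apart from these fits, each change also did not pass in another alternative analysis (limma, adjusted p = 0.294 at 2 h). Of 19 alternative analyses, 2 ended the call at 2 h and 3 ended that at 4 h.

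Aldh1b1, a mitochondrial enzyme that oxidises acetaldehyde, ran the other way, with signals of 157 and 193 in untreated cells, 139 and 124 at 2 h and 64.8 and 64.6 at 4 h. The groups did not overlap, and the 2 arrays at 4 h were nearly equal. The change at 2 h was -0.41 ± 0.12 and just missed the threshold (adjusted p = 0.0593). At 4 h Aldh1b1 was 2.69-fold lower than in untreated cells (-1.43 ± 0.12, adjusted p = 0.00194) and 2.03-fold lower than at 2 h (-1.02 ± 0.12, adjusted p = 0.00697). After the normexp correction with the 75th percentile its 4 h change was -0.24 and did not pass (adjusted p = 0.597).

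Aldh2, the main mitochondrial enzyme for acetaldehyde and lipid aldehydes, rose slightly, by 0.29 ± 0.07 at 2 h (adjusted p = 0.0327), which turned to -0.05 without scaling and -0.08 with the spike-in scaling, and by 0.32 ± 0.07 at 4 h (adjusted p = 0.0232). A second Aldh2 probe gave 0.76 and 0.33. Of the dehydrogenases of amino acid metabolism, Aldh18a1 (proline synthesis) rose by 0.23 ± 0.06 at 2 h and Aldh5a1 (succinic semialdehyde) by 0.25 ± 0.06 at 2 h, both negative without scaling and with the spike-in scaling, and Aldh4a1 (proline breakdown) rose by 0.26 ± 0.07 at 4 h. Aldh4a1 also passed at 2 h in the fit with slide as block (0.24, adjusted p = 0.0245). Between 4 h and 2 h, Aldh16a1 and Aldh18a1 each fell by 0.23 on the log2 scale (SE 0.05 and 0.06). Aldh3a2, which oxidises fatty aldehydes, changed by -0.08 ± 0.08 and -0.24 ± 0.08, and the 4 h change (adjusted p = 0.0773) passed with the block (adjusted p = 0.0179), with median centring (-0.40, adjusted p = 0.0135) and without scaling (-0.50, adjusted p = 0.0418). The remaining Aldh genes that were tested did not pass at 2 h or 4 h, and Aldh3a1, the corneal form, was not above background on any array.

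The aldo-keto reductases reduce aldehydes and steroids with NADPH. Of 10 tested, 3 rose at each time and 0 fell (limma; 0 at 2 h and 2 at 4 h were lower at an unadjusted p under 0.05), and 4 of 14 were not tested. The share that rose, 30%, lay near the 23.7% and 24.6% of all tested genes, and 2 of the 3 rises at 4 h (Akr1c6 and Akr1b7) are of genes that were above background in 1 group. The largest changes were in genes that were bright enough in 1 group alone. Akr1c6, an oestradiol dehydrogenase in liver, had signals of 4.03 and 6.22 in untreated cells, 5.0 and 6.88 at 2 h and 34.0 and 38.3 at 4 h, where it alone was well above background. Akr1c6 was at least 2.41-fold higher at 4 h than in untreated cells and at least 2.10-fold higher than at 2 h (adjusted p = 0.00232 and 0.0047). Akr1b7, an aldose reductase-like enzyme, had signals of 7.88 and 9.40 in untreated cells, 41.6 and 42.3 at 2 h and 27.4 and 28.6 at 4 h, and was at least 2.80-fold higher at 2 h than in untreated cells (adjusted p = 0.000366). At 4 h both arrays of Akr1b7 lay too near background, so no fold is given there, although the fitted change passed. Both genes entered the test only through the group in which they were high, so calls kept in alternative analyses are no support for a rise. Of 18 alternative analyses that gave a test, 1 ended the call of Akr1b7 at 2 h (limma, adjusted p = 0.267). The call of Akr1c6 at 4 h also ended in 1 of 18 (limma, adjusted p = 0.0588).

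The abundant aldo-keto reductases changed little. Akr1a4 (now Akr1a1), the general aldehyde reductase, had signals of 23946 and 23390 in untreated cells, 29575 and 28758 at 2 h and 29532 and 31740 at 4 h. The treated arrays lay above both untreated ones, with changes of 0.30 ± 0.06 at 2 h (adjusted p = 0.0219), which turned to -0.04 without scaling and -0.07 with the spike-in scaling, and 0.37 ± 0.06 at 4 h (adjusted p = 0.0114). Akr1b8 rose by 0.28 ± 0.07 at 2 h (adjusted p = 0.0404), which was negative under the same 2 scalings, and changed by 0.24 ± 0.07 at 4 h (adjusted p = 0.0568, and 0.0234 with the block). Akr1b3, aldose reductase, changed by 0.23 ± 0.07 and 0.20 ± 0.07 (adjusted p = 0.0532 and 0.066) and passed with the block at both times (adjusted p = 0.0274 and 0.0334). In the Akr1c cluster on chromosome 13, Akr1c13, Akr1c14, Akr1c18 and Akr1c19 changed by between -0.30 and 0.51 at 4 h without passing, Akr1c18 apart, which passed with the block (0.51, adjusted p = 0.0346). A second Akr1c19 probe, well above background on 5 arrays, ran differently, with -0.82 at 2 h and 1.04 at 4 h. The brightest Akr1c19 probe gave -0.08 and -0.29. Akr1c12, Akr1c20, Akr1c21 and Akr1d1 were not tested, since none was well above background on both arrays of a group, and the Akr1c genes are so alike that their probes may share signal.

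The quinone and carbonyl reductases included a late rise and a late fall. Nqo1, which reduces quinones without releasing semiquinone radicals, had signals of 2283 and 2252 in untreated cells, 2759 and 2710 at 2 h and 2999 and 2855 at 4 h. All treated arrays lay above the untreated ones, by 0.27 ± 0.06 at 2 h (adjusted p = 0.0218), which turned to -0.07 without scaling and -0.10 with the spike-in scaling, and by 0.37 ± 0.06 at 4 h (adjusted p = 0.0086). Nqo2 changed by 0.15 ± 0.05 and 0.06 ± 0.05 (the first passed with the block, adjusted p = 0.0477). Cbr3, a carbonyl reductase that uses NADPH, had signals of 6691 and 6223, 7576 and 7639, and 12120 and 10895 at 0 h, 2 h and 4 h. Its groups did not overlap, and most of the change came late: 0.24 ± 0.08 at 2 h (adjusted p = 0.0737, and 0.0427 with the block), 0.83 ± 0.08 at 4 h (1.78-fold, adjusted p = 0.00243) and 0.60 ± 0.08 between 4 h and 2 h (adjusted p = 0.00855). Its neighbour on chromosome 16, Cbr1, did not pass (0.10 ± 0.36 and -0.16 ± 0.36). The slides differed for Cbr1 in every group, with signals of 425 and 638 in untreated cells, 433 and 723 at 2 h and 391 and 557 at 4 h.

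Cbr4, part of a mitochondrial quinone and ketoacyl reductase, had signals of 1988 and 2006 in untreated cells, 1888 and 1981 at 2 h and 1365 and 1368 at 4 h. It fell at 4 h by 0.55 ± 0.06 on the log2 scale (1.46-fold lower, adjusted p = 0.00285), with no passing change at 2 h (-0.05 ± 0.06), and the fall between 2 h and 4 h was 1.42-fold (-0.50 ± 0.06, adjusted p = 0.00554). Cbr2 rose by 0.33 ± 0.09 at 2 h (adjusted p = 0.045), which turned to 0.00 without scaling and -0.04 with the spike-in scaling, and changed by 0.17 ± 0.09 at 4 h.

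Between 4 h and 2 h, 5 of the 61 genes rose, 7 fell and 49 did not pass. The shares were 8.2% and 11.5%, or 19.7% in all, where 13.4% of all tested genes rose, 16.4% fell and 29.9% passed in all. The 5 that rose were Akr1c6, Gpx2, Aldh1a3, Cbr3 and Gsta4, and the 7 that fell were Aldh1b1, Akr1b7, Gstt3, Cbr4, Gstt2, Aldh16a1 and Aldh18a1. Akr1c6 and Akr1b7 entered the test only through the group in which they were high, so their calls are no support. In the fit with slide as block 11 fell, the additional genes being Akr1c14, Aldh3b1, Aldh3b2 and Aldh5a1. Without either 2 h replicate 3 rose and 3 fell, without either 4 h replicate 3 fell, and 5 of the 12 calls were kept whichever array was left out (Akr1c6, Aldh1a3, Aldh1b1, Cbr4 and Gpx2). The median of the 61 genes was -0.04, beside -0.08 for all genes.

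**Figure D4:**
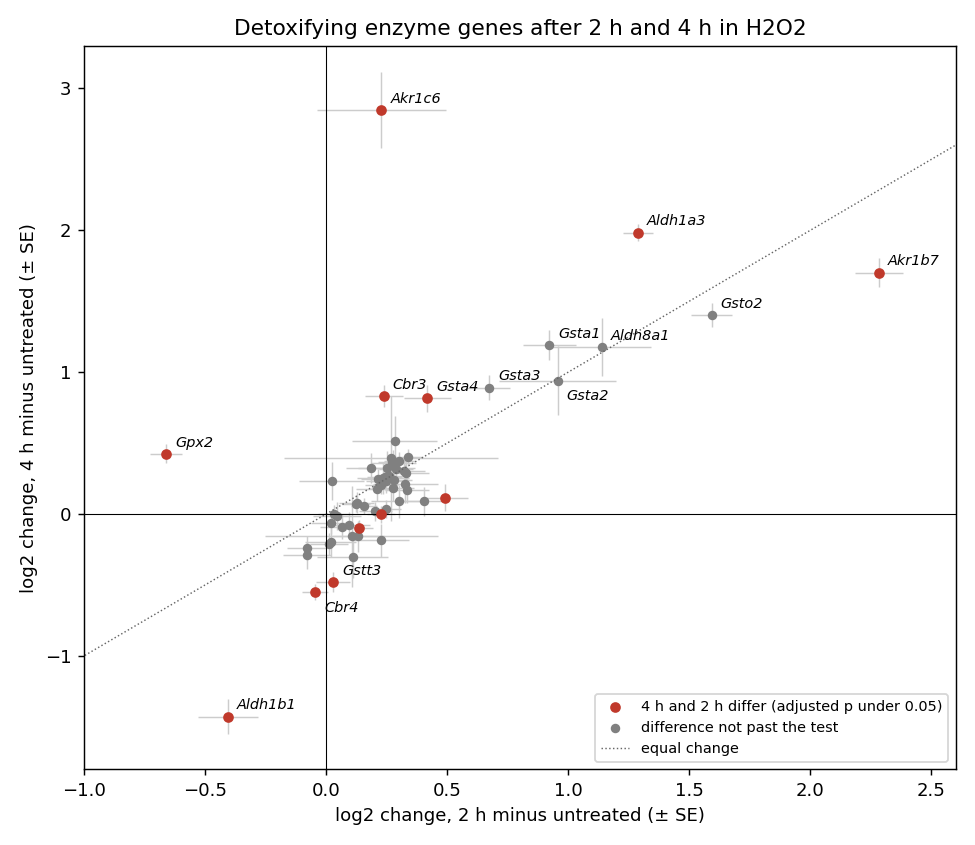
Log2 change after 4 h (vertical axis) against the change after 2 h (horizontal axis) for the 61 tested detoxifying enzyme genes, each against the same untreated arrays, with SE bars (n = 2 arrays per group); the points of Akr1b7 and Akr1c6 are fitted values from signals not above background in untreated cells. Red points differed between 4 h and 2 h (adjusted p under 0.05) and the dotted line marks equal change; Gpx2, Cbr3, Gsta4 and Aldh1a3 lie above the line, and Aldh1b1, Cbr4 and Gstt3 below it.

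Genes that supply these enzymes with glutathione and NADPH were listed as context, and several changed more than most of the enzymes. Among all tested genes, 23.7% rose and 15.3% fell at 2 h, and 24.6% rose and 18.4% fell at 4 h. Of 14 tested genes of glutathione synthesis and recycling, 7 rose and 2 fell at 2 h, and 9 rose and 2 fell at 4 h, with medians of 0.31 and 0.50. Slc7a11, the cystine carrier that feeds glutathione synthesis, had signals of 733 and 836 at 2 h and 707 and 737 at 4 h, against 250 and 259 in untreated cells (1.62 ± 0.08 and 1.50 ± 0.08, adjusted p = 0.000514 and 0.000713). Chac1, which breaks glutathione down, fell by 1.28 ± 0.06 at 2 h and by 0.81 ± 0.06 at 4 h. Ggt1, which cleaves glutathione outside the cell, was at least 2.87-fold higher at 2 h, the only group in which it was well above background, and Cbs, of the transsulfuration route to cysteine, rose at 4 h (1.31 ± 0.09). Of 10 tested genes of NADPH supply, 4 rose at 2 h and 3 at 4 h, 0 fell (limma; 0 at an unadjusted p under 0.05), and Pgd of the pentose phosphate pathway rose at both times (0.41 ± 0.07 and 0.64 ± 0.07). The shares of the NADPH genes that rose were 40% at 2 h and 30% at 4 h, the latter near that of all tested genes. Mthfd1 rose at 4 h (0.31 ± 0.07), and Idh2 and Nnt rose at 2 h (0.27 ± 0.05 and 0.25 ± 0.06), both negative without scaling and with the spike-in scaling.

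Of 9 tested regulators and markers of Nrf2, 7 rose at each time and 0 fell (limma; 0 at an unadjusted p under 0.05), with medians of 0.89 and 0.77. Hmox1, haem oxygenase, rose by 2.48 ± 0.08 and 2.41 ± 0.08, Srxn1 by 1.15 ± 0.08 and 1.40 ± 0.08, and the small Maf genes Mafg (1.01 ± 0.07 and 0.91 ± 0.07) and Maff (0.90 ± 0.06 and 0.51 ± 0.06) rose as well. Set beside these, Nqo1 and Gstm1, which are among the enzyme genes known as Nrf2 targets, changed by 0.27 and 0.32 at 2 h. These 2 genes do not stand for all the enzymes. The alpha class had a median of 0.80 at 2 h, beside 0.24 for all 61 genes. The part of Nrf2 in any of these changes was not tested. The aryl hydrocarbon receptor, a sensor of planar aromatic compounds, induces Nqo1, Gsta1 and Aldh3a1 in mouse. Of 5 tested genes of that pathway, 4 fell at 2 h and 0 rose (limma, also 0 at an unadjusted p under 0.05). At 4 h 1 fell, and 4 rose between 4 h and 2 h. Among all tested genes 23.7% rose and 15.3% fell at 2 h. At 4 h 24.6% rose and 18.4% fell, and 13.4% rose between the times. Ahr fell by 0.58 ± 0.05 at 2 h, Tiparp by 0.48 ± 0.07, Ahrr by 0.29 ± 0.07 and Cyp1b1 by 0.65 ± 0.07, and Cyp1b1 was still lower at 4 h (-0.38 ± 0.07) by its brightest probe, but higher with the mean of its probes (0.44, adjusted p = 0.0399).

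Of 6 tested pumps that export glutathione conjugates and other drugs, 1 rose and 1 fell at 2 h, and 2 rose and 1 fell at 4 h. The shares were 16.7% and 16.7% at 2 h, where 23.7% of all tested genes rose and 15.3% fell. At 4 h they were 33.3% and 16.7%, where 24.6% rose and 18.4% fell. Abcc4 fell at both times (-0.28 ± 0.05 and -0.63 ± 0.05), Abcc1 and Abcc5 rose at 4 h (0.30 ± 0.06 and 0.28 ± 0.07), and Abcg2 rose at 2 h (0.20 ± 0.05), which was negative without scaling and with the spike-in scaling. Of 16 other conjugating or hydrolysing enzymes, 4 rose and 1 fell at 2 h, and 4 rose and 3 fell at 4 h. The share that rose, 25% at both times, lay near the 23.7% and 24.6% of all tested genes. The share that fell at 4 h, 18.8%, lay near their 18.4%. Sult1a1, a phenol sulfotransferase, rose by 1.97 ± 0.07 and 1.67 ± 0.07, and Esd, which splits the glutathione adduct of formaldehyde, by 0.48 ± 0.10 and 0.69 ± 0.10. Nat2, an arylamine acetyltransferase, fell by 1.44 ± 0.07 at 2 h and by 0.55 ± 0.07 at 4 h. Hnmt, histamine methyltransferase, was at least 1.44-fold lower at 4 h, where it was not well above background.

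The retinoid genes were listed because of the Aldh1a enzymes. Of 21 tested, 2 rose and 3 fell at 2 h, and 2 rose and 8 fell at 4 h, with medians of -0.03 and -0.17. The shares were 9.52% and 14.3% at 2 h, where 23.7% of all tested genes rose and 15.3% fell. At 4 h they were 9.52% and 38.1%, where 24.6% rose and 18.4% fell. Dhrs3, which turns retinaldehyde back to retinol, had signals of 1251 and 1270 at 2 h and 733 and 698 at 4 h, against 1759 and 1849 in untreated cells, and fell by 0.52 ± 0.06 and 1.33 ± 0.06 on the log2 scale. The receptor genes Rara (-0.97 ± 0.19 and -0.96 ± 0.19) and, at 4 h, Rarb (-0.97 ± 0.12) fell, though Rarb changed by 0.39 with the mean of its probes. Rxrg had signals of 11 and 16.7 at 4 h, not well above background, against 26.5 and 25.8 in untreated cells, so no fold is given although the test was passed (adjusted p = 0.0221). Of 10 tested genes of selenoprotein synthesis, on which most Gpx enzymes depend, 2 rose and 1 fell at 2 h, and 2 rose and 3 fell at 4 h. The 20% that rose at each time lay near the 23.7% and 24.6% of all tested genes. The 10% and 30% that fell compare with 15.3% and 18.4% of all tested genes. Secisbp2 fell at 2 h (-0.77 ± 0.09), and Eefsec (-0.57 ± 0.11), Sephs1 (-0.49 ± 0.11) and Pstk (-0.44 ± 0.09) fell at 4 h. With the mean of its probes Pstk fell at 2 h instead (-0.76, adjusted p = 0.00439).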

How the data were processed

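Per the labels, Cy3-labelled total RNA of MEFs extracted with Trizol was hybridised to the arrays. Per the file headers, the authors extracted signals with Feature Extraction 9.5.3.1, and the deposited scanner files hold spot intensity, of which the background-corrected processed signal was used. The deposited value table, also intensity, equals it within 0.0005. No source used here names the genome build of the probes, whose positions are therefore left out.

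Of 45018 spots, 43379 were not controls, and 99 to 149 outlier spots per array were left out. Repeated spots were averaged, and for each gene name in the files the probe with the highest mean log2 signal was kept (the 68 names had 90 probes, and 20 names had several). Log2 signals minus each array's 75th percentile were fitted over all 17334 genes that at least 1 group had well above background on both of its arrays, with limma 3.58.1 in R 4.3.3 (package data.table in version 1.17.8), 3 residual and 1.63 prior degrees of freedom, and Benjamini-Hochberg adjustment. The script was tested on simulated data. A fold against a group with both arrays near background is a bound ("at least"): the bright group's mean over, for each dim array, the larger of the gene's own signal and the lowest signal that counted as above background. All 68 names matched RefSeq by accession or symbol.

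The members and lists were chosen with earlier results of these data known. Named are all members past a test with groups that do not overlap (the 20 with the largest change in every array), 26 chosen whatever their result, and up to 4 genes of each other list past a test with the largest change. Alternatives were quantile, median, no and spike-in scaling, normexp (offset 50), the authors' table, filters, probe choice, the replicate number as a block, single slides, left-out arrays and a variance trend. The replicate number coincides with the slide, so both blocks are 1 fit. Same-numbered arrays deviated together from their group means (r = 0.248, 0.191 and 0.242 for the 3 pairs of groups).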

Additional observations from a re-analysis of the deposited data

Results flagged for a closer look

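For 12 of the detoxifying enzyme genes the change at 4 h differed from that at 2 h by a test of the difference (limma, 4 h minus 2 h, log2 scale, adjusted p under 0.05). On this scale 4 h was above 2 h for Gpx2 (1.09), Aldh1a3 (0.69), Cbr3 (0.60) and Gsta4 (0.40). It was below 2 h for Aldh1b1 (-1.02), Gstt3 (-0.51), Cbr4 (-0.50), Gstt2 (-0.38), Aldh16a1 (-0.23) and Aldh18a1 (-0.23). Akr1c6 and Akr1b7 were not above background at one of the 2 times and entered the test through a single group, so only bounds are given: Akr1c6 was at least 2.10-fold higher and Akr1b7 at least 1.45-fold lower at 4 h than at 2 h. The share of all tested genes past this test was 29.9%. For Aldh1a3 a second probe ran the other way between the times (-0.30).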

How the results depend on the processing

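The counts changed with the scaling, the background correction, the filter on dim probes and single arrays. The first counts are in the order quantile normalization, median centring, no scaling and spike-in scaling. At 2 h 9, 6, 6 and 6 detoxifying genes rose and 2, 4, 7 and 3 fell (22 and 1 as reported). The medians were 0.11, 0.037, -0.10 and -0.14. The rises were 14.8%, 9.84%, 9.84% and 9.84% of the 61, where 15.2%, 10.7%, 8.9% and 8.15% of all tested genes rose. The falls were 3.28%, 6.56%, 11.5% and 4.92%, where 18.8%, 22.3%, 33.1% and 28.6% of all tested genes fell. At 4 h with median centring, no scaling and spike-in scaling 9, 9 and 10 rose (21 as reported). These were 14.8%, 14.8% and 16.4% of the 61, where 13.2%, 10.2% and 9.09% of all tested genes rose. With quantile normalization and these 3 in turn 7, 8, 14 and 6 fell (3 as reported), and the medians were 0.078, 0.058, -0.045 and -0.042. The falls were 11.5%, 13.1%, 23% and 9.84%, where 22%, 23.8%, 31.7% and 25.1% of all tested genes fell. Between 4 h and 2 h 4, 4, 3 and 1 fell (7 as reported), and the median was 0.037 without scaling and 0.074 with spike-in scaling. With normexp and the 75th percentile 4 rose and 0 fell at 2 h (limma; 2 of the 61 were lower at an unadjusted p under 0.05 as reported) with a median of 0.22, 7 rose and 1 fell at 4 h, and 1 rose and 1 fell between the times. For this setting the shares at 2 h were 6.56% and 0%, where 4.69% of all tested genes rose and 4.26% fell. At 4 h they were 11.5% and 1.64%, where 8.68% rose and 4.87% fell. With normexp and quantile 13 rose and 2 fell at 2 h, and the medians were 0.092 at 2 h and 0.062 at 4 h. These counts were 21.3% and 3.28%, where 16% of all tested genes rose and 19.8% fell. Without a filter on dim probes 6 rose at 2 h, 12 rose at 4 h and 3 fell between the times. The rises were 8.82% and 17.6% of the 68, where 8.36% and 9.44% of the 27962 genes in that fit rose. Why these counts differ from the reported ones was not tested. Among genes above background on all 6 arrays 2 fell at 2 h (3.39%, where 17% of all genes in that fit fell). With all probes of a gene averaged 3 rose and 4 fell between the times. With the slide as a replicate block 11 fell between the times, 31 rose at 2 h and 27 at 4 h. The rises were 50.8% and 44.3% of the 61, where 33.5% and 31% of all tested genes rose. Within slide 1 the median at 2 h was 0.20, and within slide 2 that at 4 h was 0.18. Leaving out 1 array gave 5 to 17 rises and 1 to 2 falls at 2 h (medians 0.19 to 0.26), 10 to 17 rises and 3 to 4 falls at 4 h (medians 0.15 to 0.25), and 3 to 5 rises and 3 to 5 falls between the times (medians -0.08 to -0.03). Signs turned for these 2 h changes without scaling and with spike-in scaling: Akr1a4 (-0.036 and -0.069), Akr1b8 (-0.058 and -0.091), Aldh18a1 (-0.11 and -0.14), Aldh2 (-0.047 and -0.081), Aldh5a1 (-0.090 and -0.12), Cbr2 (-0.0028 and -0.036), Gpx4 (-0.0080 and -0.042), Gstm1 (-0.015 and -0.049), Gstm2 (-0.10 and -0.14), Gstm3 (-0.076 and -0.11), Nqo1 (-0.067 and -0.10), Idh2 (-0.067 and -0.10), Nnt (-0.085 and -0.12) and Abcg2 (-0.14 and -0.17). At 4 h the same 2 settings turned Gpx3 (-0.013 and -0.010) and Gstm2 (-0.030 and -0.027), and spike-in scaling turned Gstm5 at 2 h (-0.033). Without scaling, changes near 0 passed as falls for Aldh1a1 (-0.27), Aldh1a2 (-0.29), Aldh1l1 (-0.24), Gstt3 (-0.31), Abcc1 (-0.33) and Pstk (-0.28) at 2 h and Ahrr (-0.26) at 4 h. After normexp with the 75th percentile the sign turned between 4 h and 2 h for Akr1b7 (0.44), Gstt2 (0.12), Ggt1 (0.060), Sult1a1 (0.31) and Hnmt (0.25), and at 4 h for Hnmt (0.47), Rara (0.12) and Rxrg (0.53). With the mean of the probes it turned for Nnt (-0.027) and Pstk (-0.76) at 2 h, Cyp1b1 (0.44) and Rarb (0.39) at 4 h, and Pstk between the times (0.47). The cause of these turns was not tested. The block also made Cbs pass at 2 h (adjusted p = 0.0493), Ahr, Tiparp and Secisbp2 at 4 h (adjusted p = 0.0298, 0.0238 and 0.0491), and Pgd and Srxn1 between the times (adjusted p = 0.0312 and 0.0315), and beside these and the genes named above it changed no other call. Probes near background and 2 arrays a group limit what could be seen.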
